A study of Mus musculus with 12 samples.

Results

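Heat shock proteins and other chaperones hold unfolded proteins in a soluble state, refold them or pass them on for degradation, and the 9 genes described here are *Hspb1*, *Hspa1b*, *Hsph1*, *Dnajb1*, *Hsp90aa1*, *Hspb8*, *Cryab*, *Hspa5* and *Hspd1*. Their signal was read from every transcript cluster (a group of probes summarised to a single value) that carried exactly that gene symbol, which gave 12 clusters of 7 genes among 21218 clusters of 18820 genes with a symbol of their own. *Hspb1* and *Hsp90aa1* had 3 clusters each, *Hspd1* had 2, and *Hsph1*, *Dnajb1*, *Hspb8* and *Hspa5* had 1 each. *Hspa1b*, an inducible HSP70, shared its 3 clusters with its near copy *Hspa1a*, and *Cryab*, which encodes alpha B-crystallin, shared its 2 clusters with its neighbour *Hspb2*, so neither has a value here. The members were chosen on values of these same arrays, namely the genotype difference in each tissue, the likeness of the *Hspb1* clusters and the difference between tissues. All values of the members are therefore given as a description, with the standard error (SE) of a difference and without a p-value.

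RNA was measured on 12 Affymetrix arrays, 3 for each of 4 groups. Mice of strain C57BL/6J/CBA, aged 6 weeks, were either FIRE -/-, lacking on both alleles the FIRE enhancer of the macrophage growth factor receptor gene *Csf1r*, or FIRE +/+ with the enhancer intact, and from each genotype hippocampus and ileum were taken. The FIRE -/- line goes back to 1 founder made by genome editing, the deletion is present in every cell, and the ileum samples are labelled as Peyer's patch, the lymphoid tissue of the gut wall, with ileum. FIRE +/+ hippocampi came from 2 males and 1 female and FIRE -/- hippocampi from 1 male and 2 females by their labels, and so did FIRE +/+ and FIRE -/- ilea. Nothing in the sources used here ties an ileum to a hippocampus of the same mouse.

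Cytosolic stress genes such as *Hspb1*, *Hspa1b*, *Hsph1*, *Dnajb1* and *Hsp90aa1* are known targets of heat shock factors, which bind inverted repeats of a short GAA unit, while *Hspa5* is a target of the unfolded protein response of the endoplasmic reticulum, read through the ER stress element. In the brain, small heat shock proteins are best known from astrocytes and vessel walls, and in the gut they are abundant in smooth muscle.

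The letters of these elements were searched on both strands of RefSeq promoter windows (GRCm38.p6, 250 bases before to 50 after each annotated start). Of the 9 genes, 7 had a window, 10 windows in all, and *Hsp90aa1* and *Cryab* had none. The head-to-head pair GAANNTTC stood in 7.86% of all 32851 windows and in 6 of the 10 member windows, and the tail-to-tail pair TTCNNGAA in 8.52% and in 3. Both windows of *Hsph1* overlap over most of their length and hold the same matches, so that each of its sites enters these counts and the next once per window. A run of 3 units, GAANNTTCNNGAA or TTCNNGAANNTTC, which contains both pairs, stood in 0.603% of all windows and in 3 of the 10. The ER stress element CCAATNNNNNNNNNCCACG stood in 0.119% of all windows, and among the members in that of *Hspa5*. Whether these matches bear on the differences between tissues described further on was not tested. The stretches below were picked from genes with such differences and show matches upstream of a start, with the matched bases in capitals. They lie at chr5:135887782-135887849 on the plus strand for *Hspb1*, chr5:149636351-149636380 on the minus strand for *Hsph1*, chr2:34772005-34772063 on the plus strand for *Hspa5* and chr1:55088053-55088082 on the minus strand for *Hspd1*.
Hspb1: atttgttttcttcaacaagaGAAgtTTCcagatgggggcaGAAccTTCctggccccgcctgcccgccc
Hsph1: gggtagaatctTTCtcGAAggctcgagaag
Hspa5: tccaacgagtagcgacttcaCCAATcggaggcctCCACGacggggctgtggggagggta
Hspd1: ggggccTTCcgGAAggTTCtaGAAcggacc
*Hspb1* had a pair of head-to-head matches before its start, at bases -117 to -110 and -97 to -90. The *Hsph1* and *Hspd1* stretches lie inside the annotated gene, ahead of a start further downstream, and in *Hspd1* all units join into a single run. *Dnajb1* had no match in its windows, and the only match of *Hspb8* followed the start. The run of 3 units of *Hsph1* also followed the start, at bases 36 to 48 of one window and 15 to 27 of the other. *Hspa1b*, not shown above, had a head-to-head match at bases -104 to -97. A match is a description of these letters and says nothing of whether a factor was bound.

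The arrays matched their labels as hippocampus or ileum and by the targeted gene in hippocampus, but 4 of the 6 ileum arrays lacked the B cell transcripts of the Peyer's patch in their label. *Snap25*, a synaptic gene, averaged 12.34 in FIRE +/+ and 12.38 in FIRE -/- hippocampus, and *Vil1*, which encodes the brush border protein villin, 11.12 and 11.23 in ileum against 3.36 and 3.21 in hippocampus. *Csf1r* went from 8.27 ± 0.10 (SD, n = 3) to 3.64 ± 0.06 in hippocampus and from 7.66 ± 0.44 to 6.94 ± 0.55 in ileum, and 9 of 10 measured microglial markers were called lower in FIRE -/- hippocampus. The FIRE -/- hippocampus array B09, labelled female, had *Xist* at 2.44 and the Y-linked gene *Eif2s3y* at 6.18, both in the range of the arrays labelled male. *Ms4a1*, which encodes the B cell protein CD20, was at 7.66 and 7.68 on the ileum arrays D09 (FIRE +/+) and F09 (FIRE -/-) and at 2.14 to 2.68 on C09, E09, G09 and H09, where the hippocampus arrays were at 1.85 to 2.26. The mean over 6 measured B cell genes was 7.93 and 8.11 on D09 and F09 against 3.26 to 3.70 on the other 4 ileum arrays. Genotype differences of several members are given with and without some of these 3 arrays. Differences between tissues are given without D09 or F09 for *Hsph1* and without F09 for *Hspa5*, and otherwise with all arrays. The differences of the gene lists rest on all arrays.

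For most of the 12 clusters the signal differed more between hippocampus and ileum than between genotypes. All values are RMA log2 signals, on which a difference of 1 is a doubling, and they are compared for a given cluster across arrays, never between clusters of different genes. In FIRE +/+ mice 4 of the 12 clusters were called higher in hippocampus than in ileum and 7 were called lower (limma, adjusted p under 0.05), when 27.1% of all 21218 clusters were called higher and 29.4% lower. In FIRE -/- mice 4 were called higher and 6 lower, beside 29.7% and 32% of all clusters. A call between these tissues was common over all clusters, so that a call alone is not particular to the members. The number in the array code is 07 for all FIRE +/+ hippocampi and 09 for all ilea, so that it and the tissue cannot be told apart in FIRE +/+ mice. There the 11 calls went to 7 without the ileum array E09 and to 7 without the hippocampus array F07.

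**Figure D1:**
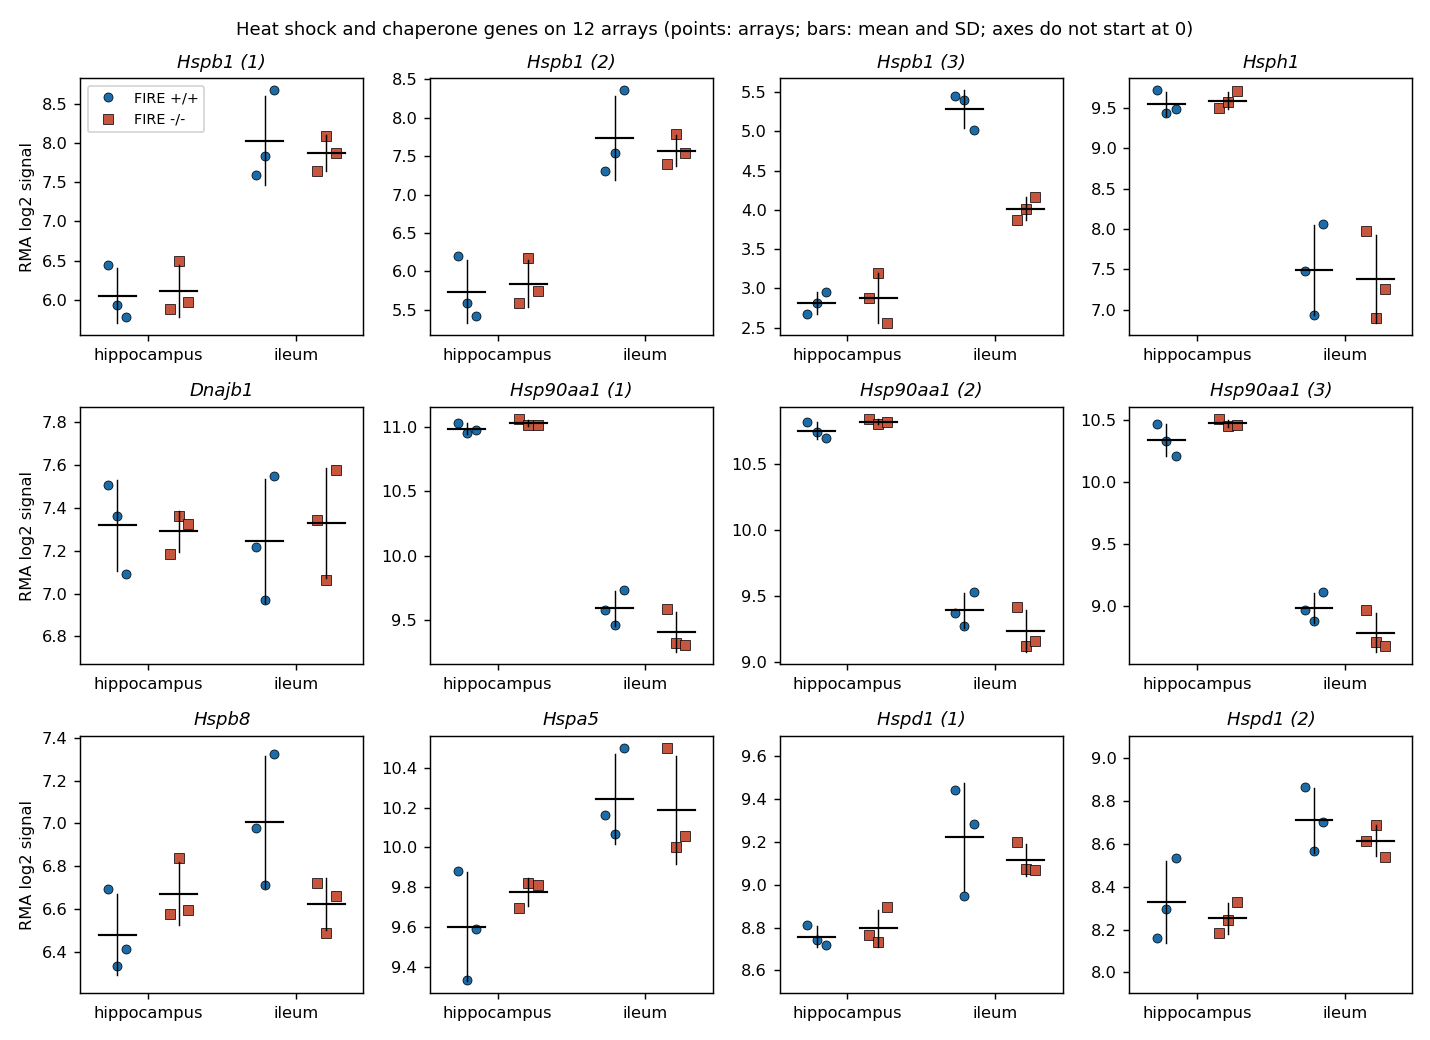
RMA log2 signal (vertical axes, each with its own range) of the 12 member clusters in hippocampus and ileum of FIRE +/+ (blue circles) and FIRE -/- mice (red squares), with each point 1 array, the horizontal bar the mean and the vertical line the SD of 3 arrays. Numbers in brackets tell the clusters of a gene apart. The tissues are separate for *Hspb1*, *Hsph1* and *Hsp90aa1*, and *Hspb1* (3) is the panel in which the ileum arrays of both genotypes do not overlap.

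*Hsph1*, which encodes an HSP110 that exchanges the nucleotide of HSP70, had its higher signal in hippocampus. It read 9.72, 9.44 and 9.50 on the FIRE +/+ hippocampus arrays E07, F07 and G07 and 9.50, 9.57 and 9.71 on the FIRE -/- arrays A09, B09 and H07. The genotypes overlapped there, and the 6 arrays spanned only 0.28. In ileum it read 7.48, 6.94 and 8.06 on the FIRE +/+ arrays C09, D09 and E09 and 7.98, 6.90 and 7.26 on the FIRE -/- arrays F09, G09 and H09. Every hippocampus array was above every ileum array, and the ileum arrays of both genotypes overlapped over a span of 1.16. Hippocampus minus ileum was 2.06 (SE 0.26) in FIRE +/+ mice, a 4.17-fold higher signal, and 2.22 (SE 0.25) in FIRE -/- mice. The FIRE +/+ difference was 1.78 without D09 and 2.35 without E09. The FIRE -/- difference was 2.52 without F09 and 1.98 without G09. Within groups of the ileum, 96.3% of all clusters had a smaller SD than *Hsph1*, whose SD of 0.56 compares with a median of 0.18 over all clusters.

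*Hsp90aa1*, the stress-inducible cytosolic HSP90 (chr12:110691036-110696395, GRCm38.p6), was also higher in hippocampus, on all 3 of its clusters. The cluster 10378848 read 11.03, 10.95 and 10.98 in FIRE +/+ and 11.06, 11.02 and 11.01 in FIRE -/- hippocampus. In ileum it read 9.58, 9.46 and 9.73 in FIRE +/+ and 9.59, 9.32 and 9.31 in FIRE -/- mice. The tissues were far apart and the genotypes overlapped in both. Hippocampus minus ileum was 1.40, 1.37 and 1.35 on the 3 clusters in FIRE +/+ mice, with SEs of 0.11 to 0.12, and 1.62, 1.59 and 1.69 in FIRE -/- mice, each with an SE of 0.11. These are 2.55 to 2.63-fold higher signals in FIRE +/+ and 3.01 to 3.23-fold in FIRE -/- mice. The hippocampus values of cluster 10378848 were among the most even on the arrays, since 1.34% of all clusters had a smaller SD within groups.

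*Hspb1*, the small heat shock protein HSP25 of the mouse (chr5:135887919-135889563), had the opposite pattern, with its higher signal in ileum. The cluster 10408928 read 6.45, 5.93 and 5.78 in FIRE +/+ hippocampus (E07, F07 and G07) and 5.88, 6.50 and 5.97 in FIRE -/- hippocampus (A09, B09 and H07). In ileum it read 7.59, 7.83 and 8.67 in FIRE +/+ (C09, D09 and E09) and 7.64, 8.09 and 7.88 in FIRE -/- mice (F09, G09 and H09). The tissues did not overlap, while the genotypes overlapped in each. Hippocampus minus ileum was -1.98 (SE 0.30) in FIRE +/+ and -1.76 (SE 0.19) in FIRE -/- mice, so the hippocampal signal was 0.254 and 0.296 times the ileal. On the cluster 10526410 the same differences were -2.00 (SE 0.31) and -1.73 (SE 0.18). On the cluster 10404872, whose reading of *Hspb1* is uncertain as described below, they were -2.48 (SE 0.15) and -1.14 (SE 0.17).

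The remaining genes differed less by tissue. *Hspa5*, which encodes the chaperone BiP of the endoplasmic reticulum (chr2:34772090-34776529), read 9.88, 9.33 and 9.59 in FIRE +/+ and 9.70, 9.82 and 9.81 in FIRE -/- hippocampus. It read 10.16, 10.07 and 10.50 in FIRE +/+ and 10.50, 10.002 and 10.06 in FIRE -/- ileum. All ileum arrays were above all hippocampus arrays, with hippocampus minus ileum at -0.64 (SE 0.18) in FIRE +/+ and -0.41 (SE 0.14) in FIRE -/- mice. The FIRE -/- difference was -0.25 without F09 and -0.50 without G09. *Hspd1*, the mitochondrial chaperonin HSP60 (chr1:55077833-55088243), likewise had its higher signal in ileum. Its cluster 10375240 read 8.81, 8.74 and 8.72 in FIRE +/+ and 8.76, 8.73 and 8.89 in FIRE -/- hippocampus, and 9.44, 8.95 and 9.28 in FIRE +/+ and 9.20, 9.07 and 9.07 in FIRE -/- ileum. The lowest ileum array was above the highest hippocampus array, and the genotypes overlapped in both tissues. The differences were -0.47 (SE 0.14) and -0.38 (SE 0.14) for hippocampus minus ileum on its clusters 10375240 and 10354732 in FIRE +/+ mice. In FIRE -/- mice these were -0.32 (SE 0.09) and -0.36 (SE 0.09).

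*Dnajb1*, the J-domain partner of HSP70 in stressed cells (chr8:83608175-83612653), had closely spaced group means. It read 7.51, 7.36 and 7.09 in FIRE +/+ and 7.18, 7.36 and 7.33 in FIRE -/- hippocampus, and 7.22, 6.97 and 7.55 in FIRE +/+ and 7.34, 7.06 and 7.58 in FIRE -/- ileum. All groups overlapped, with means between 7.25 and 7.33, and hippocampus minus ileum was 0.07 (SE 0.18) in FIRE +/+ and -0.04 (SE 0.14) in FIRE -/- mice. *Hspb8*, a small heat shock protein that works with BAG3 in clearing misfolded proteins, differed by -0.53 (SE 0.18) between the tissues of FIRE +/+ mice and by 0.05 (SE 0.11) between those of FIRE -/- mice, where the tissues overlapped. Its group means ran from 7.01 in FIRE +/+ ileum over 6.67 in FIRE -/- hippocampus and 6.62 in FIRE -/- ileum to 6.48 in FIRE +/+ hippocampus, and neighbours in this order overlapped.

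**Figure D2:**
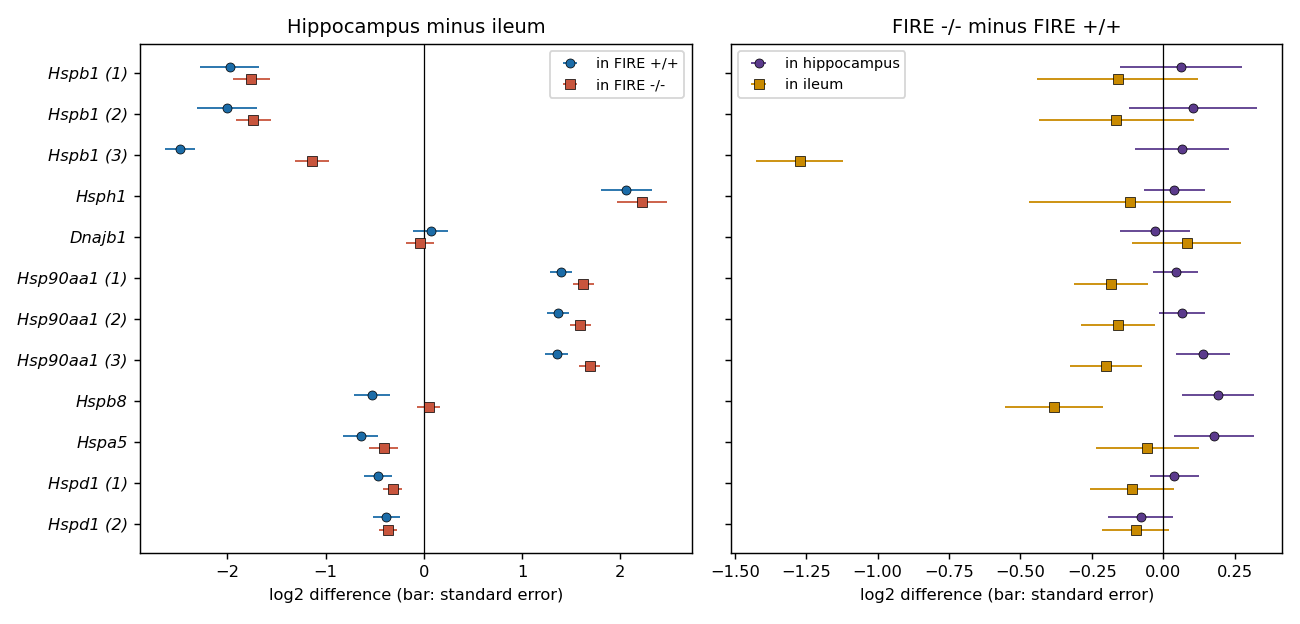
Log2 differences of the 12 member clusters with their standard errors (horizontal axes, each panel with its own range), hippocampus minus ileum in FIRE +/+ (blue) and FIRE -/- mice (red) on the left, and FIRE -/- minus FIRE +/+ in hippocampus (purple) and ileum (ochre) on the right. Panels share arrays. Differences between tissues reach 2.22 upward and -2.48 downward, and *Hspb1* (3) in ileum, at -1.27, stands off from the other differences between genotypes.

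In hippocampus the arrays of both genotypes overlapped on every member cluster. FIRE -/- minus FIRE +/+ ran from -0.08 (*Hspd1*, cluster 10354732) to 0.19 (*Hspb8*), 10 of the 12 differences were positive, and their median was 0.06 when that of all 21218 clusters was 0.0077. No cluster was called, when 0.448% of all clusters were, and the genotypes did not overlap on 9.66% of all clusters. *Hspb8* read 6.69, 6.33 and 6.41 in FIRE +/+ and 6.58, 6.84 and 6.60 in FIRE -/- mice, a difference of 0.19 (SE 0.13), or of 0.11 without B09 and 0.30 without the FIRE +/+ array E07. *Hsph1* differed by 0.04 (SE 0.11), *Dnajb1* by -0.03 (SE 0.12), the clusters of *Hsp90aa1* by 0.04, 0.07 and 0.14 (SE 0.08 to 0.09) and cluster 10375240 of *Hspd1* by 0.04 (SE 0.09). *Hspa5* differed by 0.18 (SE 0.14), and by 0.04 without the FIRE +/+ array F07, which had its lowest value, and 0.32 without E07. *Hspb1* differed by 0.06 (SE 0.21) and 0.10 (SE 0.23) on its clusters 10408928 and 10526410, by -0.13 and -0.07 without B09, and by 0.26 and 0.34 without E07. Both clusters were high on B09 and on E07 and low on the other 4 arrays, whatever the genotype, and 95.6% and 96.7% of all clusters had a smaller SD within groups of hippocampus. The array codes of all FIRE +/+ hippocampi and of H07 end in 07 and those of A09 and B09 in 09, a number that the labels do not explain. With it as a covariate, which rests the difference on H07 against the FIRE +/+ arrays, cluster 10404872 of *Hspb1* went from 0.07 to -0.26, cluster 10408928 from 0.06 to -0.08, *Hsph1* from 0.04 to 0.15 and cluster 10375240 of *Hspd1* from 0.04 to 0.14.

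The hippocampus pieces also differed in content. Across 6 measured choroid plexus genes, the mean signal ran from 5.58 to 8.72 in FIRE +/+ and from 7.74 to 8.82 in FIRE -/- hippocampus. It was lowest on F07, where *Ttr*, the transthyretin gene that defines choroid plexus, was at 9.24 against 12.11 to 12.48 on the other 5 arrays, and highest on B09 and E07. *Hspa5* and *Hspb8* were lowest on F07, and *Hspb8* and cluster 10408928 of *Hspb1* were highest on B09 and E07. That cluster was at 5.93 on F07. On A09 and G07 it was at 5.88 and 5.78, and the choroid plexus means of these arrays were 8.45 and 8.09. The mean of 10 reactive astrocyte genes was 6.04 to 6.13 in FIRE +/+ and 6.36 to 6.63 in FIRE -/- hippocampus, with 0 of 10 called. All 10 differences were positive, with a median of 0.30. The genotypes did not overlap on 6 of the 10, when they did not on 9.66% of all clusters. The mean over 10 immediate early genes, which are switched on within minutes of a stimulus, was 6.72 to 7.41 and 6.56 to 7.14. The part of these contents in the values of the members was not tested, and in whole tissue fewer cells of a type and less RNA per cell cannot be told apart.

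In ileum 11 of the 12 differences between genotypes were negative, from -1.27 to 0.08, with a median of -0.16 when that of all clusters was -0.0099. No member cluster was called, and 0% of all 21218 clusters were. Of all clusters, 393 were higher and 327 lower at an unadjusted limma p under 0.05. The genotypes did not overlap on 1 of the 12 member clusters, when they did not on 8.04% of all clusters. That cluster was 10404872 of *Hspb1*. It read 5.45, 5.40 and 5.01 on the FIRE +/+ arrays C09, D09 and E09 and 3.88, 4.01 and 4.16 on the FIRE -/- arrays F09, G09 and H09. Each FIRE -/- array was thus below each FIRE +/+ array, with means of 4.02 ± 0.14 and 5.29 ± 0.24 (SD, n = 3 each) and a difference of -1.27 (SE 0.15), a signal 0.414 times that of FIRE +/+. Of all clusters, 0.24% had a larger absolute difference in ileum. It was -1.15 without D09 and F09 and -1.41 without E09.

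The other *Hspb1* clusters did not show this difference. On 10408928 and 10526410 FIRE -/- minus FIRE +/+ in ileum was -0.16 (SE 0.28) and -0.17 (SE 0.27), and it was 0.16 and 0.15 without E09. Those clusters ran side by side: the first exceeded the second by 0.22 to 0.36 on every hippocampus array and by 0.25 to 0.34 on every ileum array, and Pearson's r between them was 0.988 over the 6 hippocampus and 0.997 over the 6 ileum arrays. The cluster 10404872 followed neither. Its distance from 10408928 ranged from 2.83 to 3.78 in hippocampus, from 2.13 to 3.66 in FIRE +/+ ileum and from 3.71 to 4.08 in FIRE -/- ileum, with r of 0.24 and 0.04 over the 6 arrays of each tissue. In hippocampus it read 2.67, 2.81 and 2.95 in FIRE +/+ and 2.87, 3.20 and 2.55 in FIRE -/- mice, where 17.8% of all clusters were dimmer. The value of 10404872 is therefore uncertain as a reading of *Hspb1*, since the probes of the 3 clusters are not placed in the sources used here. RefSeq lists a pseudogene of *Hspb1*, *Hsp25-ps1* (chr13:45078370-45079184, GRCm38.p6), and which of the clusters reads it was not tested.

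**Figure D3:**
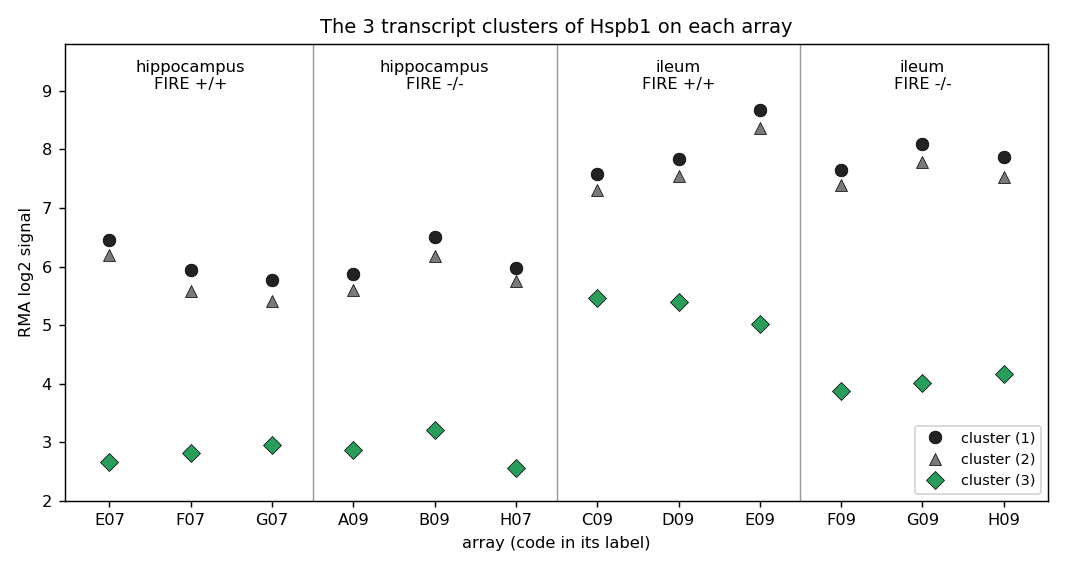
RMA log2 signal (vertical axis) of the *Hspb1* clusters 10408928 (1, black circles), 10526410 (2, grey triangles) and 10404872 (3, green diamonds) on each of the 12 arrays, by group. Clusters (1) and (2) keep a distance of 0.22 to 0.36 on all arrays, while (3) drops between FIRE +/+ and FIRE -/- ileum, from 5.29 to 4.02 on average, without the other clusters.

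Among the other genes with several clusters, *Hsp90aa1* was the most even. In ileum its clusters 10402615 and 10490946 followed 10378848 with r of 0.991 and 0.996 over 6 arrays, and in hippocampus, where the values span little, with 0.857 and 0.813. The probes of these clusters are not placed either, and whether near copies share their signal was not tested. The clusters of *Hspd1* followed each other in ileum (r = 0.858) and not in hippocampus (r = -0.24). RefSeq names 23 pseudogenes of *Hspd1*, so that the signal of its clusters may be shared with near copies and is uncertain to that extent.

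*Hspb8* had the next largest difference of the ileum. It read 6.98, 6.71 and 7.33 in FIRE +/+ and 6.72, 6.49 and 6.66 in FIRE -/- mice, and the genotypes overlapped through D09 and F09. The difference was -0.38 (SE 0.17), and 4.54% of all clusters had a larger one. Without D09 and F09, the pieces rich in B cell transcripts, the difference over the 4 remaining arrays was -0.58, while without E09 it was -0.22. *Hsph1* moved more between these settings, from -0.12 (SE 0.35) with all arrays to -0.69 without D09 and F09 and 0.17 without E09. The clusters of *Hsp90aa1* went from -0.18, -0.16 and -0.20 to -0.34, -0.31 and -0.34 without D09 and F09, *Hspa5* from -0.06 to -0.30, and cluster 10375240 of *Hspd1* from -0.11 to -0.29. Other single arrays took these values towards 0 or past it: without E09 the clusters of *Hsp90aa1* were at -0.11, -0.09 and -0.14 and *Hspa5* at 0.07, and without C09 cluster 10375240 of *Hspd1* was at -0.0014. *Dnajb1* differed by 0.08 (SE 0.19) with all arrays and by -0.06 without D09 and F09 and 0.23 without E09.

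The FIRE +/+ array E09 had the highest ileum value of *Hspb1* on its clusters 10408928 and 10526410, of *Hsph1*, of *Hspb8* and of all 3 clusters of *Hsp90aa1*. It also had the highest mean over 8 measured genes of intestinal smooth muscle, 10.60, when the other FIRE +/+ arrays were at 10.07 and 10.13 and the FIRE -/- arrays at 10.01 to 10.28. The part of smooth muscle content in these values was not tested. Immediate early genes were at 6.44 on E09 and from 6.47 to 6.93 on the other ileum arrays.

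The genotype differences of both tissues were set against each other in a fit of all 12 arrays. No member was called, when 0.0895% of all clusters were. The difference of differences, hippocampus minus ileum, was 1.34 (SE 0.24) for cluster 10404872 of *Hspb1*, and 1.21 without D09 and F09. For *Hspb8* it was 0.58 (SE 0.22), and 0.77 without these arrays. It lay between -0.11 (*Dnajb1*) and 0.34 (cluster 10490946 of *Hsp90aa1*) for the other members. Without D09 and F09 these other values lay between 0.03 (*Dnajb1*) and 0.73 (*Hsph1*), with *Hspa5* at 0.48, and without E09 between -0.26 (*Dnajb1*) and 0.27 (cluster 10490946 of *Hsp90aa1*), with *Hsph1* at -0.13.

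After the mean of each tissue was subtracted, several members went up and down together over the 12 arrays. *Hsph1* had r of 0.81, 0.85 and 0.70 with the clusters of *Hsp90aa1*, of 0.82 with *Hspa5* and of 0.66 with *Hspb8*, while its r with cluster 10408928 of *Hspb1* was 0.28. That cluster had r of 0.63 with *Hspb8* and of 0.08 with cluster 10404872 of its own gene. The points share dissection, RNA preparation and scaling, and the values are a description. By the same measure the genes most like cluster 10408928 of *Hspb1* were *Ipo9* (r = 0.934), *Bbs1* (0.921), *Slc35c1* (0.916), *Atp1b2* (0.916) and *Mrgprf* (0.912). Those most like *Hspa5* were *Stk40* (r = 0.937), *Zfp800* (0.928), *Rnf2* (0.903), *Tubb4b* (0.901) and *Trav7d-4* (0.884). Clusters of the same gene were left out of this ranking, such as cluster 10526410 of *Hspb1*, which had r of 0.992 with 10408928. No other member gene was among either set.

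The wider chaperone system was read from lists of 90 other genes, of which 82 had a cluster of their own. In hippocampus none passed the limma test between genotypes. Of the 82, 58 differences were positive, with a median of 0.05, and they ran from -0.16 (*Hspb3*) to 0.40 for *Hspb6*, the small heat shock protein of muscle and vessel walls, which was at 7.36 ± 0.09 in FIRE +/+ and 7.76 ± 0.25 in FIRE -/- mice (SD, n = 3 each, limma adjusted p = 0.840). Most smooth muscle genes lay on the same side, in lists that share *Acta2*, *Myh11*, *Tagln* and *Cnn1*. Of 7 genes of vascular smooth muscle and pericytes 5 were positive, with a median of 0.29. Their array means were 6.38 to 6.71 in FIRE +/+ and 6.50 to 7.11 in FIRE -/- hippocampus. Of 8 genes of the intestinal smooth muscle list 7 were positive, with a median of 0.42 and means of 5.58 to 6.04 and 5.74 to 6.81. Array A09 was highest in both lists. *Pdgfrb* and *Kcnj8* of the first list and *Synm* of the second were lower in FIRE -/- hippocampus. The part of vessel wall content in the value of *Hspb6* was not tested. Next came *Bag2*, a nucleotide exchange factor of HSP70, at 0.27 (adjusted p = 0.979). The 8 genes of mitochondrial protein folding were all on the positive side, with a median of 0.12, and the 20 genes of the endoplasmic reticulum stress response had a median of 0.03. The medians of small heat shock proteins (0.11), HSP70 (0.06), HSP90 (0.08), J-domain proteins (0.06), chaperonins (0.04), co-chaperones (0.07) and heat shock factors (0.0090) lay between these or close by.

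In ileum again none of the 82 passed, and 23 differences were positive, with a median of -0.05. *Trib3*, a target of the integrated stress response, had the highest at 0.44 (SE 0.27), followed by the J-domain gene *Dnaja4* at 0.33 (SE 0.12) and the HSP70-like gene *Hspa12a* at 0.33. The lowest were *Hspb7*, a small heat shock protein of muscle, at -0.32 (SE 0.45) and *Bag2* at -0.32 (SE 0.30), each with a limma adjusted p of 0.999. All 9 chaperonin subunits were on the negative side, with a median of -0.07. Co-chaperones had a median of -0.12, mitochondrial folding of -0.11, HSP90 of -0.05, HSP70 of -0.05, J-domain proteins of -0.04, heat shock factors of -0.02, the endoplasmic reticulum list of -0.01 and small heat shock proteins of 0.02. All medians but that of small heat shock proteins were thus below 0 in ileum and all were above 0 in hippocampus. The median of all 21218 clusters was itself -0.0099 in ileum and 0.0077 in hippocampus. Heat shock factors lay close to it in both tissues and the endoplasmic reticulum list in ileum. Some genes are in more than 1 list, and HSP90 held only 2 measured genes and heat shock factors 3.

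**Figure D4:**
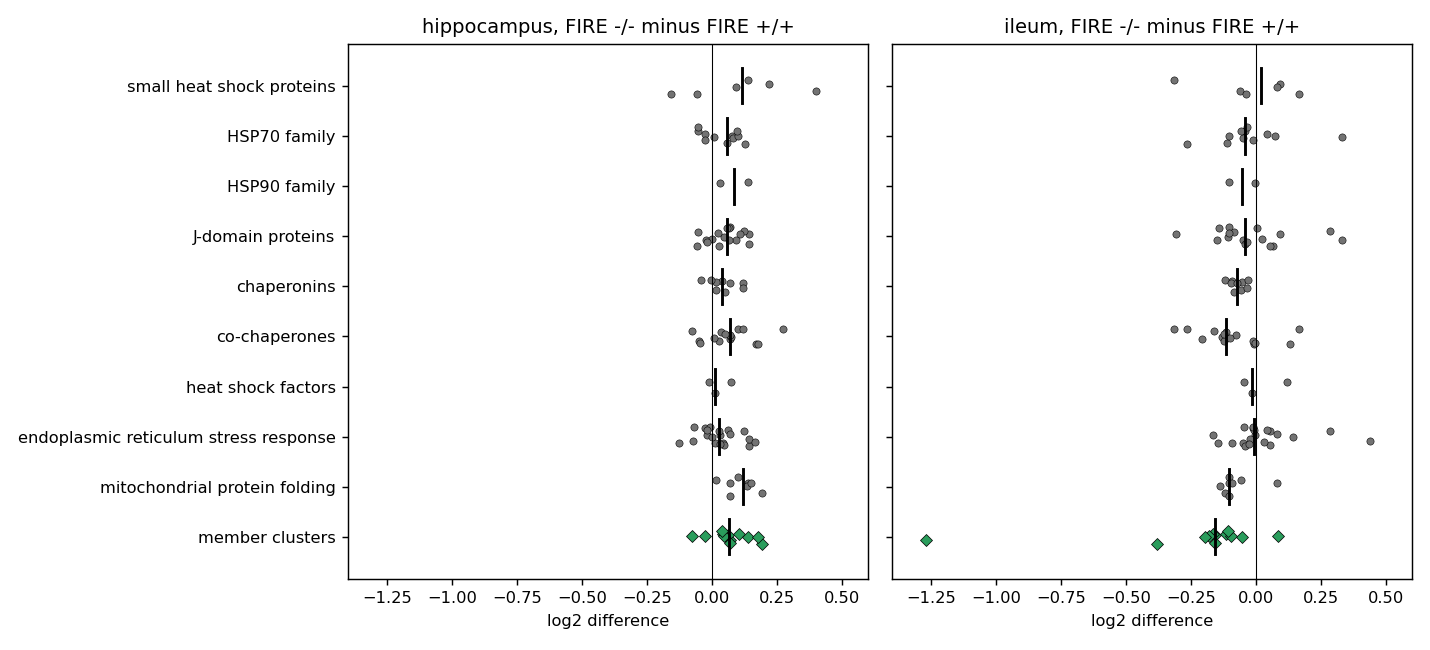
FIRE -/- minus FIRE +/+ log2 difference (horizontal axes) of 82 other chaperone genes by list (grey points, 1 gene each; some genes are in more than 1 list) and of the 12 member clusters (green diamonds) in hippocampus and ileum, with list medians as black bars. Most points lie within 0.25 of 0 in both tissues, and the green diamond at -1.27 in ileum is cluster 10404872 of *Hspb1*.

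Between the tissues of FIRE +/+ mice, 25 of the 82 genes were called higher in hippocampus and 27 lower, shares close to the 27.1% and 29.4% of all clusters. In the endoplasmic reticulum stress response list, to which *Hspa5* belongs by function, 0 of 20 genes were called higher in hippocampus and 13 lower, with a median of -0.72 when that of all clusters was -0.03. Among them were *Ern1*, which encodes the stress sensor IRE1, at -1.85, *Sdf2l1* at -1.46, *Herpud1* at -1.16 and *Xbp1*, the factor that IRE1 activates and a gene of plasma cells, at -1.08. Of 17 J-domain genes 9 were called higher in hippocampus and 3 lower, led by *Dnajc6*, the neuronal auxilin that uncoats clathrin vesicles, at 5.86, *Dnaja4* at 2.47 and *Dnajb5* at 1.83. Of 11 HSP70 genes 5 were called higher and 0 lower, with *Hspa12a* at 2.50 and *Hspa4l*, an HSP110 like *Hsph1*, at 1.46.

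Of 4 genes in the heat shock factor list, only 3 had a cluster of their own. These were *Hsf2*, *Hsf4* and the regulator *Hsbp1*, all called higher in hippocampus, at 1.84, 1.63 and 0.83. Of 6 small heat shock proteins 0 were called higher and 2 lower, the muscle genes *Hspb7* at -3.43 and *Hspb6* at -2.81, on the same side as *Hspb1*. Of 15 co-chaperones 6 were called higher and 5 lower, among them *Bag3*, the partner of *Hspb8*, at -1.80. Of 3 other HSP90 genes listed, only 2 had a cluster of their own. Both, *Hsp90b1* of the endoplasmic reticulum at -0.66 and mitochondrial *Trap1* at -0.60, were called lower in hippocampus, where *Hsp90aa1* was higher. Chaperonins had 1 called higher and 2 lower of 9, and mitochondrial folding genes 1 and 4 of 8. Markers of other cells differed in the same comparison: the mean of 8 intestinal smooth muscle genes was 5.58 to 6.04 in FIRE +/+ hippocampus and 10.07 to 10.60 in ileum, and that of 6 plasma cell genes 4.53 to 4.62 and 6.75 to 7.83. Their part in the differences between tissues was not tested.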

How the data were processed

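The deposited table holds log2 values of 35556 transcript clusters on 12 Affymetrix Mouse Gene ST arrays, which the authors made from the scanned images by RMA (background correction, quantile normalization and median polish), with a version not given in the sources used here. Whether both tissues were normalized together is not stated. Array medians were 4.29 to 4.46, and arrays correlated across clusters with r of 0.991 to 0.996 in hippocampus and 0.981 to 0.992 in ileum. Symbols came from GEO's platform annotation: 21218 clusters had 1 symbol and were tested, 1881 had several and 12457 none, and both of the latter were left out.

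Groups came from the labels. Each contrast was fitted in R 4.3.3 with lmFit and eBayes of limma 3.58.1 (two-sided, Benjamini-Hochberg over 21218 clusters, threshold 0.05, no covariate and no filter on signal), on the 6 arrays compared or, for the difference between tissues of the genotype effect, on all 12. The labels do not number the mice, so p-values measure the spread between these samples, and the number of arrays limits the precision. The fit was tested on simulated data. Figures and promoter searches used Python 3.11.15, pandas 2.3.3 and matplotlib 3.10.9. The members and all lists (9 chaperone lists, and markers of which those that bear on a result are given) were chosen with earlier results of these data known. Named were every member cluster, up to 3 genes per chaperone list with the largest difference, the markers behind a list's level, the 5 clusters of other genes most like the brightest *Hspb1* and *Hspa5* clusters, *Csf1r*, *Xist* and *Eif2s3y*. Genes named for the difference between tissues, *Snap25*, *Vil1*, *Ttr* and *Ms4a1* were chosen after their values were seen. A gene outside the members was read from its cluster of highest mean. The alternatives were another or no moderation, a second quantile normalization, all clusters, dim clusters left out, sex, array weights, 1 fit of 12 arrays, the number in the array code, B cell content, the mean of a gene's clusters and leaving out arrays.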

Additional observations from a re-analysis of the deposited data

How the results depend on the processing

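The count of members called between genotypes stayed at 0 in hippocampus, in ileum and for the difference of both in every alternative run, and so did that of the 82 other chaperone genes in each tissue. In FIRE +/+ mice, 11 member clusters were called between tissues, 7 with no moderation of the spread, and 7 to 11 with 1 array left out, the lowest without F07 or without E09. In FIRE -/- mice it was 10, and 8 to 10 with 1 array left out. The cause of these changes was not tested. Of 624 recomputed log2 differences of the members, 577 kept their sign, 47 had the other sign, 18 moved by the SD of the arrays or more, and none of those called reversed. In ileum, cluster 10404872 of *Hspb1* kept its sign in all 11 settings, from -1.41 to -1.15. Leaving out D09 and F09 for the difference between tissues of the genotype effect was added after the data were seen. No paired analysis was possible because no source used here ties arrays to a shared mouse or litter, and replicate numbers only name the arrays. With the number in the array code as a covariate in hippocampus, cluster 10404872 of *Hspb1* turned from 0.07 to -0.26 and no call changed. Precision is limited by having 3 arrays a group, and how far a dim cluster such as 10404872 in hippocampus stands over background is not given in the values used here.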
